A study of Homo sapiens with 2 samples.

Results

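Peaks from a pulldown of tagged ETV6 were examined around 6 genes often deleted or changed in childhood leukaemia with the ETV6-RUNX1 fusion. The genes are BTG1, NR3C1, TBL1XR1, EPOR, ATF7IP and CDKN1B. The peaks described are those whose summit, the highest point, lay in a gene's hg19 span or within 20 kb of it. There were 33 such peaks of 315787 in the deposited list, in windows that add up to 693 kb. The genes were listed by name, with earlier results of these data known.

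The cells were Reh, a long-established line of pre-B acute lymphoblastic leukaemia with the t(12;21) translocation, which fuses ETV6 to RUNX1. They were transduced with the lentiviral vector pCCL carrying either HA-tagged ETV6 (ETV6-HA) or untagged ETV6, at 200 ng of virus with 8 µg/mL polybrene, and kept for 2 weeks. Anti-HA magnetic beads were used on both lines, so the untagged line served as the negative pulldown, and bound DNA was sequenced. Both lines therefore carry the translocation and added ETV6, and the epitope is on the added ETV6 of the tagged line only. The peak list comes from the pool of the tagged line, and a list of the untagged pool was not analysed here. The design mentions triplicates but the titles name pools, so with 1 pooled library no spread between replicates could be measured and no test between conditions made.

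ETV6 is an ETS-family transcription factor that mostly represses its targets through corepressors and histone deacetylases. ETS factors recognise a short core, GGAA, on either strand. In ETV6-RUNX1 leukaemia the fusion arises early, and further losses follow, often of the second ETV6 copy with its neighbours on 12p. BTG1 and CDKN1B restrain proliferation, the latter as the cyclin-dependent kinase inhibitor p27. NR3C1 is the glucocorticoid receptor, through which the steroids used in treatment kill lymphoblasts. EPOR is the erythropoietin receptor, known for raised expression in this leukaemia. TBL1XR1 is a subunit of the NCoR and SMRT corepressor complexes, and ATF7IP is a partner of the histone methyltransferase SETDB1.

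The 6 windows did not behave alike. EPOR and CDKN1B each had 1 tall peak just upstream of the gene, with 53 and 57 reads at the summit, as recovered from the deposited fold and p. NR3C1, TBL1XR1 and BTG1 were nearly empty, with 1, 2 and 1 peaks, and ATF7IP had 9 low peaks. At the mean density of their chromosomes the windows would have held 71 peaks in all, so the 33 found were 0.464 times that number (exact 95% Poisson interval 0.32 to 0.652). The shortfall came mostly from 2 long windows. Without NR3C1 and TBL1XR1 the ratio was 0.818 (0.552 to 1.17), and without either alone it was 0.584 and 0.586. The ratio was below 1 in 4 windows and above 1 in 2, EPOR and CDKN1B. Intervals cover counting error over peaks only. Peaks clump along a chromosome, since counts in stretches of the windows' lengths had a variance of 3.16 to 14 times their mean, so the interval is too narrow as a measure of spread along the chromosome. Each window is therefore also set against all non-overlapping stretches of its length on its chromosome.

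**Figure D1:**
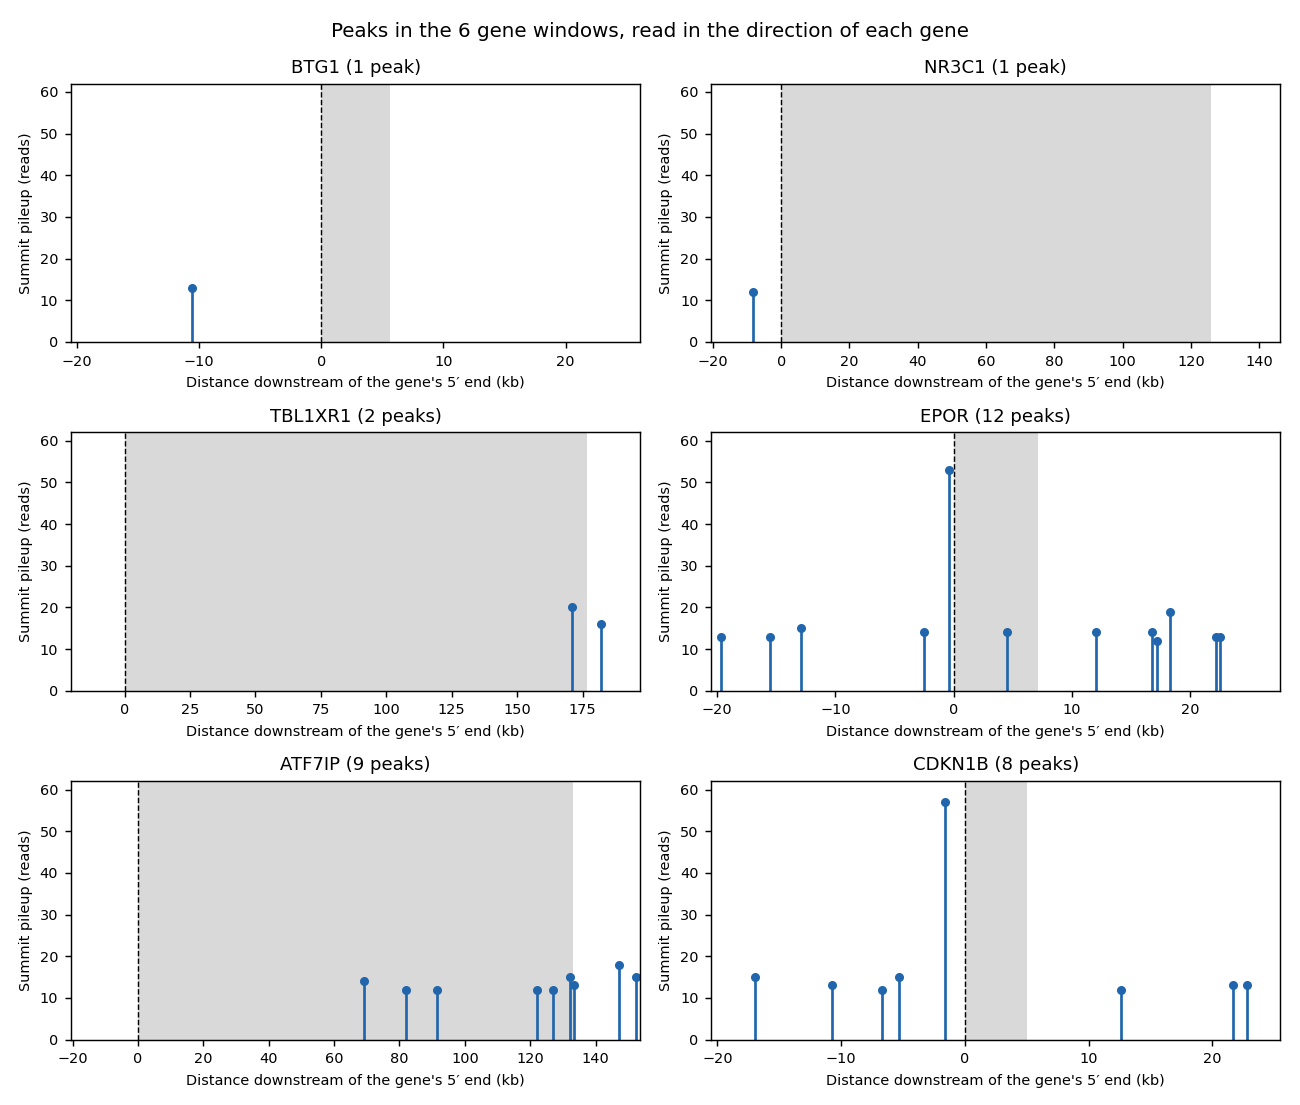
Each panel shows 1 gene window, with position in kb downstream of the gene's 5′ end on the x axis (negative is upstream) and the number of reads piled up at each summit on the y axis. Grey marks the gene and the dashed line its 5′ end. EPOR and CDKN1B have peaks of 53 and 57 reads just upstream of the gene, and no other peak in the windows is above 20 reads.

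Among the genes that restrain proliferation, CDKN1B (chr12:12870302-12875305, hg19, plus strand) had 8 peaks, all in its flanks and 0 in the gene. The tall one, chr12:12868564-12868861, was 298 bp wide and had 57 reads at the summit over a recovered background of 4.29 reads, a fold enrichment of 11 by the authors' peak caller. Its summit lay 1584 bp upstream of the gene's 5′ end. Its −log10 q was 38.7, and by fold it ranked 210th of the whole list and 19th on chromosome 12. Of 2972 stretches of the window's length on that chromosome, 16 (0.538%) held a peak of at least this fold. The other 7 peaks of the window were low, at 12 to 15 reads. Of these, 4 lay farther upstream, at 5.33, 6.72, 10.7 and 17 kb, and 3 lay downstream, at 12.6, 21.7 and 22.8 kb from the 5′ end. In number, the window was ordinary: 8 peaks stood against 5.06 expected, a ratio of 1.58 (0.683 to 3.12), and 24.5% of the stretches held at least as many. The next protein-coding genes in the RefSeq order are GPR19 upstream and APOLD1 downstream, and the peaks were not placed relative to them.

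BTG1 (chr12:92534054-92539673, minus strand) had 1 peak in its window, at chr12:92550172-92550232. That peak had 13 reads, a fold of 2.65 and a width of 61 bp, and its summit lay 10.6 kb upstream of the 5′ end. In the gene itself there were 0 peaks, where 0.631 was expected, too few for the gene alone to say anything. The window as a whole had 5.12 expected, giving a ratio of 0.195 (0.00494 to 1.09), and 19.0% of 2931 stretches on chromosome 12 held as few or fewer. By count this window was therefore not unusual. The peak-free stretch that it belongs to was longer than nearly all others. From the summit upstream of BTG1, the next summit on the other side of the gene was 279 kb away, at 92270803. Of 15025 gaps between neighbouring summits on chromosome 12, whose median was 4.48 kb, this was the second longest. It and the longest together made up 2.51% of the chromosome's length. The longest, 3.07 Mb from 34797897, lies at the centromere, and beyond it the gap at BTG1 was the longest of 11412. The third, 251 kb, and the fourth, 248 kb, were little shorter. In bins of 100 kb, the first 200 kb downstream of the 5′ end held 0 peaks, while the other 18 bins within 1 Mb held 1 to 14. The 1 Mb on each side of the window was itself sparse, and against it the ratio was 0.351 (0.00888 to 1.95).

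Of the receptor genes, NR3C1 (chr5:142657496-142783254, minus strand) was the emptiest member. Its 126 kb span held 0 peaks where 12.3 were expected. The window held 1 peak, chr5:142791610-142791674, with 12 reads, the lowest pileup in the whole list, and a fold of 2.46. Its q was above 0.05, and its summit lay 8.38 kb upstream of the 5′ end. Against 16.3 peaks expected from chromosome 5 the ratio was 0.0615 (0.00156 to 0.343). Of 1090 stretches of the window's length, 50 (4.59%) held 1 peak or none. With flanks of 50 kb the ratio was 0.271, from 6 peaks against 22.1. The surroundings made the contrast larger, since the 1 Mb on each side held 290 peaks, or 24 per window length, and the ratio to them was 0.0416 (0.00105 to 0.232). The peak-free stretch ran for 220 kb, from 142571328 to 142791630, and held the whole gene span used here. RefSeq lists 7 promoters for NR3C1, at 143403284 to 143435762 in GRCh38.p14. Those were not placed in hg19, so 0 peaks and upstream hold for the given span and may not hold for longer transcripts. The peak-free stretch ranked 9th of 17714 gaps on chromosome 5, where the median gap was 5.26 kb. Gaps as long or longer, itself counted, made up 4.41% of the chromosome's length. The edges were sharp in bins of 100 kb: the first 200 kb downstream of the 5′ end held 0 peaks, and each of the other 18 bins within 1 Mb held 7 to 22.

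EPOR (chr19:11487881-11495018, minus strand) was the opposite case, with 12 peaks. The tallest, chr19:11495246-11495559, was 314 bp wide, with 53 reads over the background of 4.29, a fold of 10.2 and a −log10 q of 34.3. Its summit lay 366 bp upstream of the 5′ end, and its nearer edge 228 bp upstream. It was the only peak of the 6 windows within 1 kb of a 5′ end. As a guide to how common that is, 10.3% of chromosome 19 lay within 366 bp of some summit, and 24.5% of its stretches of 2 kb held one. Height set this peak apart more than place. It ranked 245th by fold in the list and 23rd on chromosome 19, and 23 of 1247 stretches of the window's length (1.84%) held a peak of at least its fold. A second peak, chr19:11476699-11476970, was almost as wide at 272 bp but had only 19 reads and a fold of 3.78, and lay 11.1 kb beyond the 3′ end. The remaining 10 peaks had 12 to 15 reads, 1 of them in the gene, 4.48 kb from the 5′ end. The 12 peaks stood against 7.04 expected, a ratio of 1.71 (0.881 to 2.98), and 15.2% of the stretches held at least as many. The gene span alone had 1 peak against 1.07 expected. EPOR is followed by SWSAP1 and preceded by RGL3 in the RefSeq order, and the peaks were not placed relative to them.

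The 2 tall peaks were alike in width and height. Their widths of 314 and 298 bp compare with a median of 91 bp over the 33 peaks and 97 bp over the 58083 peaks of chromosomes 3, 5, 12 and 19. Those medians come mostly from low peaks. Over the 6 member peaks with q of at most 0.01, these 2 included, the median was 206 bp. The widths of other tall peaks were not compared. Both had the background of 4.29 reads that 95.8% of all peaks share, so neither lay where the recovered background was raised. At that background 1 read changes the fold by 0.189, and their difference of 4 reads is within counting error. Peaks with a fold of at least 10 are rare: chromosome 12 had 22 and chromosome 19 had 26.

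The sequence under the peaks was not read, because the genome at hand is of another build. RefSeq (GRCh38.p14) gives the 250 bases before the start of each gene, and 3 are shown, 5′ to 3′ on the gene's strand, to set the 2 genes with a tall peak upstream beside a gene with none. Capitals mark the ETS core GGAA, or TTCC where it is on the other strand. EPOR is at chr19:11384315-11384564 (minus strand), CDKN1B at chr12:12717118-12717367 (plus strand) and BTG1 at chr12:92145847-92146096 (minus strand), all in GRCh38.p14, and the hg19 peaks were not placed on them. In hg19 the tall peak of CDKN1B lay 1441 to 1738 bp upstream of the 5′ end, and that of EPOR 228 to 541 bp. Where the 2 builds' starts match, the 250 bases therefore miss the CDKN1B peak. They reach at most the near edge of the EPOR peak.
EPOR: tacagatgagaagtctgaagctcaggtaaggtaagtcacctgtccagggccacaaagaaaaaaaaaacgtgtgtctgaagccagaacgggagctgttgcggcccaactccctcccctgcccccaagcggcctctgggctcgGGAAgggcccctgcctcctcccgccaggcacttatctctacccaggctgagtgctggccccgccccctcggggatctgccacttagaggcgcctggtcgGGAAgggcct
CDKN1B: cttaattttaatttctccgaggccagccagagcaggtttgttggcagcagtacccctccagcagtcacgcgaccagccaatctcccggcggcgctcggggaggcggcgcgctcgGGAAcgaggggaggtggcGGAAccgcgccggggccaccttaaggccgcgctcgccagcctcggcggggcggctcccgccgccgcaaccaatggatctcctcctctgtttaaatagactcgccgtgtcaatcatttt
BTG1: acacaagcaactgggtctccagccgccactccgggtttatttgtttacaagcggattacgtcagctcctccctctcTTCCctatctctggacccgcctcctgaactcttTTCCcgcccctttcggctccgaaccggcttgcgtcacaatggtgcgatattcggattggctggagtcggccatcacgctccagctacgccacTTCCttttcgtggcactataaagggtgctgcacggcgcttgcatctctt
EPOR and CDKN1B had 2 cores each and BTG1, with no tall peak nearby, had 3. Over all 18 promoters that RefSeq lists for the 6 genes, 18 held at least 1 core, beside 92.7% of 35116 promoters, where the median was 3. The longer CGGAA, which contains the core, was found on either strand in 4 of the 18, beside 30.3% of all promoters: 1 of CDKN1B and 3 of the 7 of NR3C1. These matches describe letters and not sites of binding.

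Of the genes for chromatin repressors, TBL1XR1 had 2 peaks and ATF7IP had 9. TBL1XR1 (chr3:176738542-176915048, minus strand) had 2 peaks in 217 kb against 18.1 expected, a ratio of 0.11 (0.0134 to 0.398). Among peaks with q of at most 0.01 the same 2 stood against 3.38 expected, a ratio of 0.592. Both lay at the far end from the 5′ end. One, chr3:176744117-176744257, was in the gene, 5.66 kb before its 3′ end, with 20 reads, a fold of 3.97 and a width of 141 bp. The other, chr3:176733014-176733140, lay 5.42 kb beyond the 3′ end with 16 reads and a fold of 3.22. These were taller than most: 10.9% of all peaks had a higher fold than the lower one and 1.45% than the higher one, ties not counted. Still, 19.2% of stretches of this length on chromosome 3 held a peak with a fold of at least 3.97. Upstream of the taller one there was no summit for 202 kb, which takes in the rest of the gene and its 5′ end. The nearest summit to the 5′ end was 30.7 kb upstream, outside the window.

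How unusual the TBL1XR1 window was depended on the reference. Over all of chromosome 3, 15.1% of 913 stretches held 2 peaks or fewer, and 10.3% held none. The 1 Mb on each side of the window was sparser than the chromosome. It held 141 peaks, or 15.3 per window length beside 18.1, and the ratio to it was 0.131 (0.0159 to 0.473). Against 5 Mb on each side the ratio was 0.149. The side of the chromosome's longest gap that holds the gene, from 93512599 on, had 97.8 peaks per Mb, beside 83.8 over the whole chromosome. On that side 3 of 481 stretches (0.624%) held 2 or fewer, with any over the gene itself included. Gaps as long as that at the gene or longer, itself counted, numbered 36 of 16562 on the whole chromosome, where they made up 14.1% of its length, and 2 of 10203 on that side. This reference was chosen after the data were seen. For NR3C1 the same step gave 25 of 792 stretches (3.16%), for BTG1 16.3%, for ATF7IP 29%, for CDKN1B 21.1% and for EPOR 16.9%.

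ATF7IP (chr12:14518566-14651697, plus strand) had 9 peaks against 19.4 expected, a ratio of 0.463 (0.212 to 0.878), but 26.9% of 772 stretches were as low or lower, so by count this window was not unusual. Among peaks with q of at most 0.01 the ratio was 0.265, from 1 peak against 3.77. It had the most peaks inside a gene, 6 of the 8 found within the 6 genes. All 9 lay in the second part of the window, from 69.3 kb downstream of the 5′ end onwards, and a gap of 98.4 kb covered the 5′ end and the first stretch of the gene. The 6 peaks in the gene had 12 to 15 reads and the 3 beyond it 13 to 18. The tallest, chr12:14665669-14665792, had 18 reads and a fold of 3.59 and lay 14.1 kb past the 3′ end. One peak, chr12:14650663-14650773, had a raised background of 5.64 reads, so its 15 reads gave a fold of only 2.41, the lowest of the 33. It was the 1 peak of the 33 off the shared background. ATF7IP and CDKN1B lie on the same arm as ETV6, and relative to 5 Mb on each side their ratios were 0.662 and 2.02. Relative to 1 Mb on each side they were 0.468 and 1.43.

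**Figure D2:**
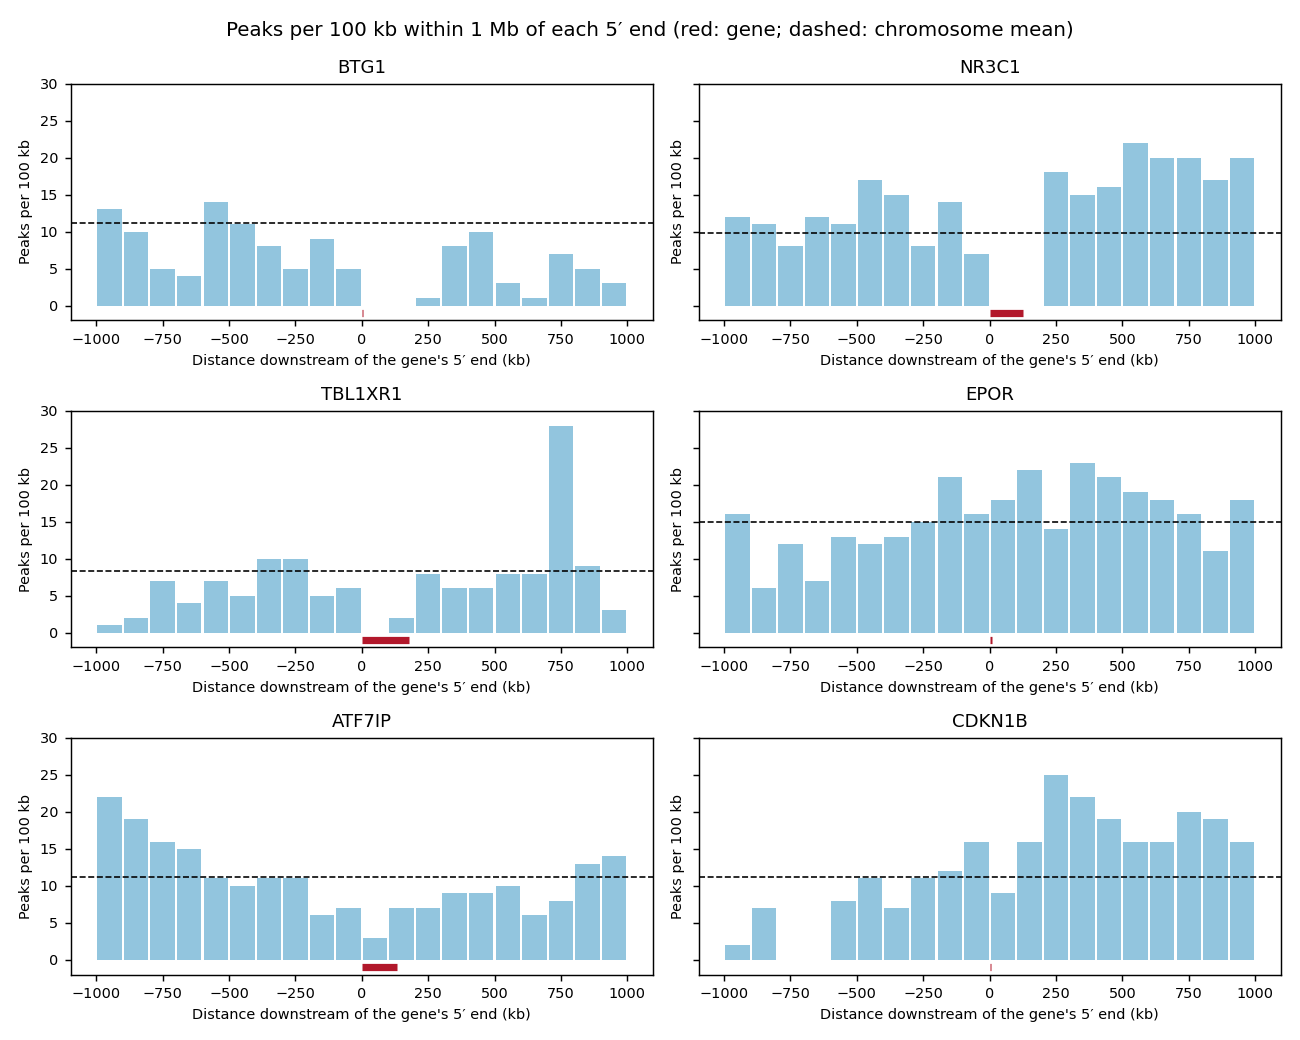
Bars give the number of peak summits per 100 kb from 1 Mb upstream to 1 Mb downstream of each gene's 5′ end, the red line below marks the gene, and the dashed line is the mean of the chromosome. NR3C1 sits in a hole of 2 empty bins between bins of 7 to 22 peaks. BTG1 lies at the start of 2 empty bins in a sparse region, inside the first, and EPOR has no bin under 6.

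Across the members, peaks were rarer inside the genes than beside them. The gene spans, 453 kb in all, held 8 peaks or 1.77 per 100 kb, and the flanks, 240 kb, held 25 or 10.4 per 100 kb. The ratio was 0.169 (exact conditional interval 0.0661 to 0.388). Within single genes the counts were too small for this: the ratio was 0.601 (0.128 to 3.71) for ATF7IP and 0.509 (0.0118 to 3.51) for EPOR. EPOR and CDKN1B gave 19 of the 25 flank peaks and 12.1 kb of the 453 kb of gene length, so the pooled ratio mixes differences between genes with those between genes and flanks.

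Near the 5′ ends, EPOR had a summit within 1 kb and CDKN1B within 2 kb. The nearest summits of the others were 8.38 kb (NR3C1), 10.6 kb (BTG1), 29.1 kb (ATF7IP) and 30.7 kb (TBL1XR1) away, all upstream. Of chromosome 12, 93.5% lay within the distance of ATF7IP from a summit, and of chromosome 3, 83.6% lay within that of TBL1XR1. For NR3C1 and BTG1 the shares were 69.7% and 78.2%, and for CDKN1B it was 28%. The 5′ ends are those of the given spans, and other RefSeq starts of these genes were not placed. Whether 5′ ends in general had more summits nearby was not analysed here.

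Most members' peaks were as weak as the list at large or weaker. Of the 33, 17 (51.5%) had at most 13 reads, beside 37.5% on the 4 chromosomes, and 25 (75.8%) had q of at most 0.05, beside 89.1%. Their median fold was 2.65 and the median of the 4 chromosomes 2.84. At the upper end 3 of 33 (9.09%) reached 20 reads, beside 1.96%, which as a density was 3 against 1.35 expected, a ratio of 2.23 (0.459 to 6.5). Those 3 are the peaks at CDKN1B, EPOR and TBL1XR1.

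**Figure D3:**
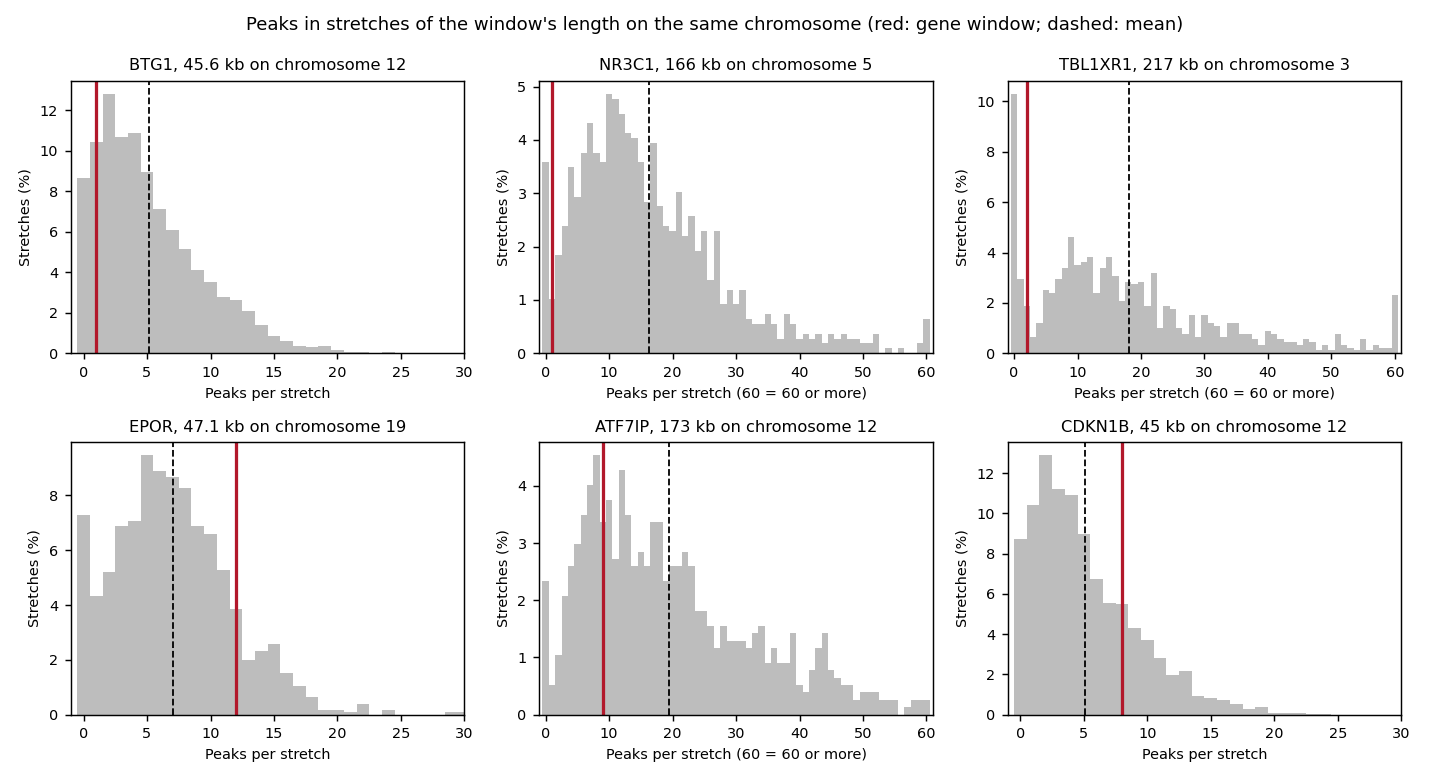
Grey bars give the share of non-overlapping stretches on the same chromosome, each as long as the gene window, that hold a given number of peaks. The red line is the gene window and the dashed line the number expected from the mean density; NR3C1, TBL1XR1 and BTG1 lie at the left edge, with 1, 2 and 1 peaks, and EPOR and CDKN1B to the right of the mean, with 12 and 8.

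**Figure D4:**
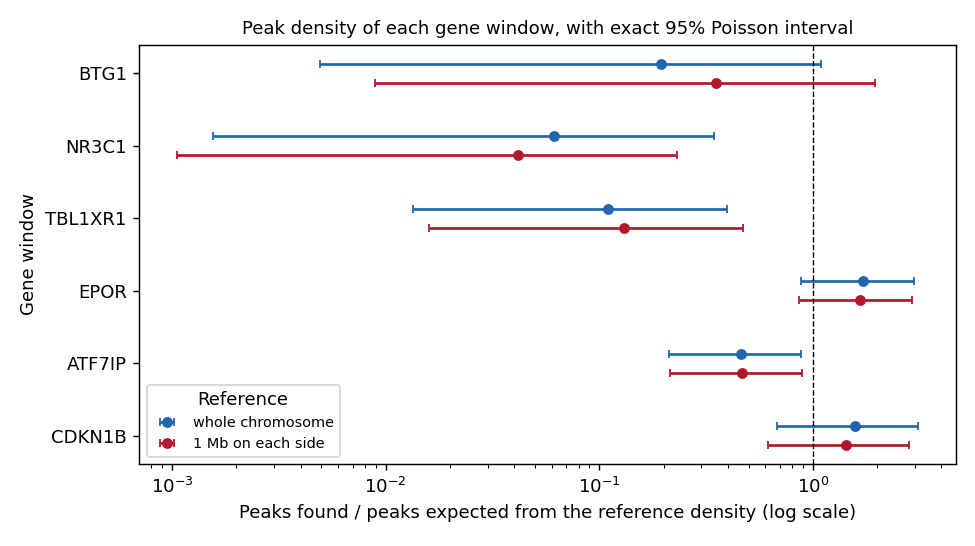
Points give the number of peaks in each window divided by the number expected, on a log scale, from the whole chromosome (blue) or the 1 Mb on each side (red), and bars are exact 95% Poisson intervals. The intervals of NR3C1, TBL1XR1 and ATF7IP end below 1 with both references, and those of BTG1, EPOR and CDKN1B include 1.

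The file lists peaks only, so coverage between peaks was not measured. A gene with 0 peaks is one where no summit passed the authors' threshold, which at the shared background meant at least 12 reads, and not one shown to lack bound ETV6. Nor is a tall peak shown to hold ETV6, as it was not set against a list of the untagged pool. The number of copies of each gene in these cells and how well reads can be placed in each window were not tested. Other genes of the same pathways were not analysed here, as no hg19 annotation was used.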

How the data were processed

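One peak list of the pooled ETV6-HA pulldown was used. The submitters' processing notes name build hg19, MACS2 (2.1.1.20160309) and Bowtie2 (2.2.3), and no settings. The list deposited by the authors gives per peak a fold, read as the ratio of summit pileup to background, its −log10 p and −log10 q, a score (10 times −log10 q, rounded down, in 100% of peaks; not used), and the start, end and summit position, with q up to 0.098. The number of reads in the library was not used here.

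Pileup and background were recovered as the whole number of reads at which fold = (pileup + 1)/(background + 1) and the Poisson tail meet; −log10 p was met within 0.001 for 99.9949% of peaks. The step was tested on simulated data. Both samples were grouped by their transduction label. Gene spans are the hg19 spans given with the members, strands come from RefSeq, and all 6 genes matched there. The transcript behind each span is not stated. Expected numbers use the density between a chromosome's first and last peak. Stretches of a window's length were laid end to end from the first peak. Intervals are exact 95% Poisson intervals, or conditional binomial ones for the gene and flank ratio. Alternatives changed the flank, the q limit, the overlap, merging and the reference. Named peaks are, per window, the strongest by fold, the nearest to the 5′ end and those with at least 20 reads; the second EPOR peak, the lower TBL1XR1 peak and the ATF7IP peak with raised background were chosen after their values were seen. The members and lists were chosen with earlier results of these data known, and the gap lengths and bins of 100 kb were added after the data were seen. Software was scipy 1.17.1, pandas 2.3.3 and numpy 2.4.6 in Python 3.11.15, with matplotlib 3.10.9 for figures.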

Additional observations from a re-analysis of the deposited data

How the results depend on the processing

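A ratio was held to stay if it was inside its interval, and a count if it was within 1.5 times. A median of fold, width or pileup was held to stay if it lay between the quartiles of the 33 peaks. Values stayed under 78 of 94 alternatives, 16 moved them and 0 reversed a ratio whose interval excludes 1. Staying is a weak criterion where the interval is wide, such as 0.00494 to 1.09 for BTG1. The ratios of BTG1, EPOR and CDKN1B could not count as reversed, since their intervals include 1. Over 12 alternatives each, the density ratio stayed below 1 for BTG1 (0 to 0.351), NR3C1 (0 to 0.271), TBL1XR1 (0.0676 to 0.592), ATF7IP (0.265 to 0.662) and all members (0.18 to 0.603). For EPOR it ran from 0.939 to 1.75 and for CDKN1B from 0 to 2.02, each below 1 only for the gene span with no flank. With no flank the ratio was 0 for BTG1, NR3C1 and CDKN1B and 0.18 for all members, and with 10 kb it was 0 for BTG1. At q of at most 0.05 it was 0 for NR3C1, and at 0.01 it was 0 for BTG1 and NR3C1 and 0.592 for TBL1XR1, whose 2 peaks both pass while only 3.38 are expected. Strong peaks numbered 3 at 20 reads and 5 both at 18 reads and at q of at most 0.001. Genes with a summit near the 5′ end went from 1 within 1 kb to 2 within 2 kb and 2 within 5 kb. At q of at most 0.01, 6 of the 33 peaks were kept, with a median fold of 3.88, width of 206 bp and pileup of 19.5 reads, higher by construction. One alternative, the part of the chromosome beside its longest gap, was added after the data were seen. No paired analysis was possible because each arm is 1 pooled library, and no replicate could be left out. Peaks under 12 reads are not listed, which limits what an empty window can show.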
